A study of Mus musculus with 6 samples.

Results

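The ERBB receptors and their ligands were followed through 8 genes in hearts of newborn mice. They are the receptor genes Erbb2, Erbb3, Erbb4 and Egfr, the ligand genes Nrg1, Hbegf and Areg, and Errfi1, which encodes an inhibitor of the receptors. The genes were taken by name from a table of 56748 genes, in which 9 rows carry these names, since Nrg1 has a second row. RNA was sequenced from hearts at postnatal day 1 in 2 groups of 3 libraries. The cKO hearts came from mice with a cardiac-specific knockout of Kdm5b, whose protein removes methyl groups from histone H3 at lysine 4. The FF hearts came from control mice titled Flox, with the genotype FF, which the series design names Kdm5b FF. No source used here gives the Cre line, strain or sex of the mice. The labels number the hearts within a group and do not say that each is a separate animal, so p-values measure the spread between these libraries, which may be technical.

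ERBB receptors are tyrosine kinases of the cell surface that pair with each other when a ligand of the epidermal growth factor (EGF) family binds. ERBB2 binds no known ligand and acts as the partner of the others, while ERBB3 binds neuregulin but has little kinase activity of its own. In the heart, neuregulin 1 is made by endocardial and other endothelial cells and acts on ERBB4 and ERBB2 of the muscle cells, where it is needed for the growth of the ventricle wall and drives cardiomyocyte division. The paired receptors switch on the RAS and ERK kinases and the PI3K and AKT kinases, and ERRFI1 blocks the kinase domain of the receptors as part of a feedback loop.

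Start regions are shown for a receptor and an inhibitor gene whose values lay in opposite directions, and for a receptor gene with little difference. They come from RefSeq on GRCm38.p6 and run from 250 bases before to 50 bases after each start. Windows were found for 5 of the 8 genes, among them Erbb2 at chr11:98412234-98412533 on the plus strand, Erbb4 at chr1:69108010-69108309 on the minus strand and Errfi1 at chr4:150854820-150855119 on the plus strand. Each is printed from 5′ to 3′ along its own strand, and capitals mark matches on either strand to any of 5 short motifs.
Erbb2: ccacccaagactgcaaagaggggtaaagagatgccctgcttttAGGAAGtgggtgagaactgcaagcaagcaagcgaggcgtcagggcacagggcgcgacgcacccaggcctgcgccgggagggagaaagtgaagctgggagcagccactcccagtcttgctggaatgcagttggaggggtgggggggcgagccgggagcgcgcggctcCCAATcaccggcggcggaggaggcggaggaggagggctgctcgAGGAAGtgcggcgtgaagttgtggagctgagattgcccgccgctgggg
Erbb4: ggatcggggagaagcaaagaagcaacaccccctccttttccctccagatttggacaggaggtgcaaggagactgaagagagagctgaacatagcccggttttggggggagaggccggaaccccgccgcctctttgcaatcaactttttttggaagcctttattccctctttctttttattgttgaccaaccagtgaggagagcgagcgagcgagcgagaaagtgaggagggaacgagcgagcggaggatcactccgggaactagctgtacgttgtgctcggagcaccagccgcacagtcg
Errfi1: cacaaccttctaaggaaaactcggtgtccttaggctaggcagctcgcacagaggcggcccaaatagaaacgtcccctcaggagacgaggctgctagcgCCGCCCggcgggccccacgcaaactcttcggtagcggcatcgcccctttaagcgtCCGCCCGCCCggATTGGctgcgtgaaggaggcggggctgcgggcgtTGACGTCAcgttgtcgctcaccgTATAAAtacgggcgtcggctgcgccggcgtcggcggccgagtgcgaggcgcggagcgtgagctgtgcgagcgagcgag

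The motifs searched were CCAAT of the CCAAT box, then the TATA box letters TATAAA, the GC box letters GGGCGG, the cyclic AMP response element TGACGTCA and the ETS core letters AGGAAG. The Erbb2 window held CCAAT, which 37.4% of all 32851 windows hold, and AGGAAG at 2 places, a motif found in 35.4% of windows. RefSeq lists 2 windows for Errfi1, and the other, at chr4:150853546-150853845, held AGGAAG and none of the other motifs. The printed Errfi1 window held TGACGTCA, which only 1.79% of windows hold, 51 bases before the start. It also held TATAAA (13.6% of windows), CCAAT on the other strand, and GGGCGG (35.7% of windows) at 3 places on the other strand, of which 2 overlap each other. The Erbb4 window held none of the 5. G and C made up 66.0% of the Erbb2 window, 66.7% of the printed Errfi1 window and 55.3% of the Erbb4 window, against a median of 52.7% over all windows. A match describes letters and is not a bound site.

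The libraries held 15658893 to 20339926 reads in genes, recovered from the deposited FPKM values (fragments scaled to gene length and library size). FF replicate 3 was unlike the rest: over 12678 genes its log2 values correlated with theirs at 0.880 to 0.909, against 0.954 to 0.984 for pairs without it. A list of 13 thymocyte markers summed to 286 FPKM in it, against 0.429 to 1.37 FPKM in cKO libraries and 0.724 to 1.71 FPKM in the other FF libraries. Thymic epithelial markers summed to 57.7 FPKM in it and to at most 2.39 FPKM elsewhere. The 10 cardiomyocyte markers summed to 16202 to 18222 FPKM in cKO and 16089 to 18082 FPKM in FF libraries, as a heart label requires. Kdm5b had 2.80, 3.03 and 2.75 FPKM in cKO hearts, against 3.19, 3.25 and 3.92 FPKM in FF hearts, a log2 difference of -0.20 (95% interval -0.50 to 0.09, limma adjusted p = 0.447), and -0.13 without FF replicate 3 (limma adjusted p = 0.391). The value covers the whole gene in every cell type, so it is a weak check of the labels. The limma results below are given with and without FF replicate 3.

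Among the 5 members tested, Erbb3 and Erbb2 had the log2 differences farthest from 0, both higher in cKO hearts. With 6 libraries 0 of the 5 members tested passed the threshold of an adjusted p of 0.05 in limma. Limma voom on reads also called 0. An unadjusted limma p under 0.05 was found for 2 of the 5, and for 17.9% of all 12678 genes. Past the adjusted threshold were 0.166% of all genes, 0.0710% as higher and 0.0947% as lower in cKO. Those are 9 higher and 12 lower genes, a split that became 30 and 18 with scaling to total reads and 31 and 28 with quantile normalization. Without FF replicate 3, Erbb2 and Erbb3 passed, 2 of 5, where 12.0% of all genes passed 5.73% as higher and 6.26% as lower in cKO. The other 3 members, Egfr, Nrg1 and Areg, had a mean under 1 FPKM and were not in that test.

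**Figure D1:**
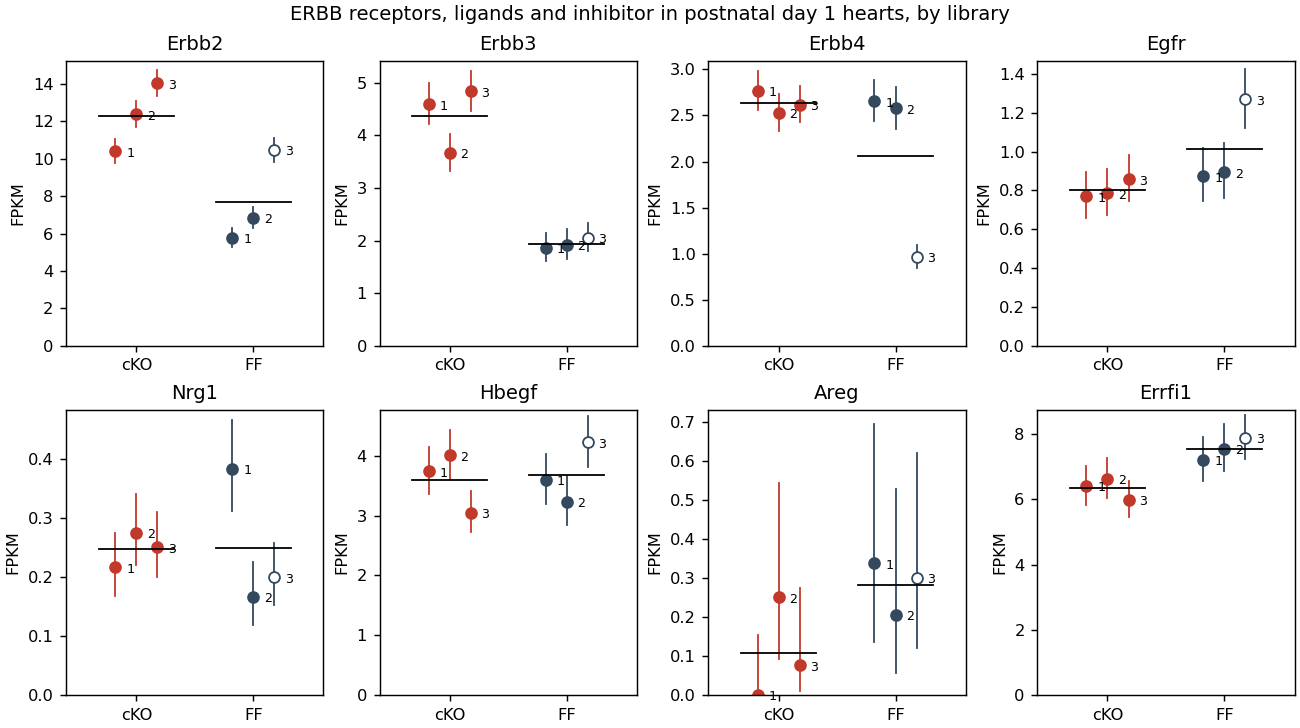
FPKM of each member in each library, cKO left of FF, with numbers marking the replicate and the open point FF replicate 3. Vertical lines are 95% exact Poisson intervals of the reads, horizontal lines the group means; Erbb3 is separated between the groups, and FF replicate 3 lies apart for Erbb2 and Erbb4.

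Erbb3 (ENSMUSG00000018166, chromosome 10, 128403392 to 128425521, minus strand), the receptor that signals mainly through its partners, had 4.596, 3.67 and 4.84 FPKM in cKO hearts, against 1.86, 1.92 and 2.05 FPKM in FF hearts. Every cKO value lay above every FF value, a pattern shared by 13.5% of the genes tested. FF replicate 3 lay beside the other FF hearts. The mean was 4.37 ± 0.619 FPKM in cKO and 1.94 ± 0.0966 FPKM in FF (SD, n = 3 each), a ratio of 2.25. These values rest on 185 to 632 reads per library. The 95% counting interval of the lowest cKO heart, 3.33 to 4.03 FPKM, lay above that of the highest FF heart, 1.80 to 2.33 FPKM. The log2 difference, on log2(FPKM + 1) as all log2 differences here, was 0.86 (SE 0.13, 95% interval 0.54 to 1.18), with limma adjusted p = 0.0659, just short of the threshold. It ranked 83 of 12678 genes by p. Without FF replicate 3 it was 0.89 (SE 0.13, limma adjusted p = 0.0176). On reads, limma voom gave a log2 difference of 1.16 (adjusted p = 0.063).

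Erbb2 (ENSMUSG00000062312, chromosome 11, 98303296 to 98328542, plus strand), the shared partner receptor, had 10.4, 12.4 and 14.0 FPKM in cKO hearts, against 5.77, 6.84 and 10.5 FPKM in FF hearts. The cKO hearts were above FF replicates 1 and 2, while FF replicate 3 was level with the lowest cKO heart, so the groups overlapped. The mean was 12.3 ± 1.82 FPKM in cKO and 7.69 ± 2.46 FPKM in FF (SD, n = 3 each), and 6.30 FPKM over FF replicates 1 and 2 alone. The log2 difference was 0.64 (SE 0.22, 95% interval 0.11 to 1.17) with limma adjusted p = 0.212. Without FF replicate 3 it was 0.86 (SE 0.14, 95% interval 0.52 to 1.20) with limma adjusted p = 0.0218, a ratio of means of 1.95. The higher value of FF replicate 3 came in the library with thymic transcripts, whose part in it was not tested. Mien1 overlaps Erbb2 on the other strand and held at most 119 reads in a library, against 513 to 1588 reads for Erbb2. The strand setting of the counting is not stated, so reads of the overlap cannot be told apart.

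Erbb4 (ENSMUSG00000062209, chromosome 1, 68071345 to 69147218, minus strand), the neuregulin receptor of heart muscle, had 2.77, 2.53 and 2.61 FPKM in cKO hearts, against 2.65, 2.58 and 0.964 FPKM in FF hearts. The other 5 libraries were thus alike and FF replicate 3 was far below them. The log2 difference of 0.30 (SE 0.25, 95% interval -0.31 to 0.91, limma adjusted p = 0.586) rested on that library. Without it the difference was 0.0076 (SE 0.10, 95% interval -0.23 to 0.25, limma adjusted p = 0.967).

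Egfr (ENSMUSG00000020122, chromosome 11, 16702203 to 16868158, plus strand), which binds EGF and its relatives and shapes the heart valves in mice, was low, with 0.769, 0.786 and 0.858 FPKM in cKO hearts, against 0.874, 0.894 and 1.27 FPKM in FF hearts. The cKO values all lay below the FF values, a pattern shared by 14.5% of the genes tested, Egfr not among them. The nearest pair differed by less than its counting error. The exact two-sided permutation p was 0.1 (n = 3 each), the smallest that 3 against 3 allows, and 0.3 when adjusted over the 3 low members. The mean was 20.5% lower in cKO, and the ratio of means was 0.910 against FF replicates 1 and 2.

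**Figure D2:**
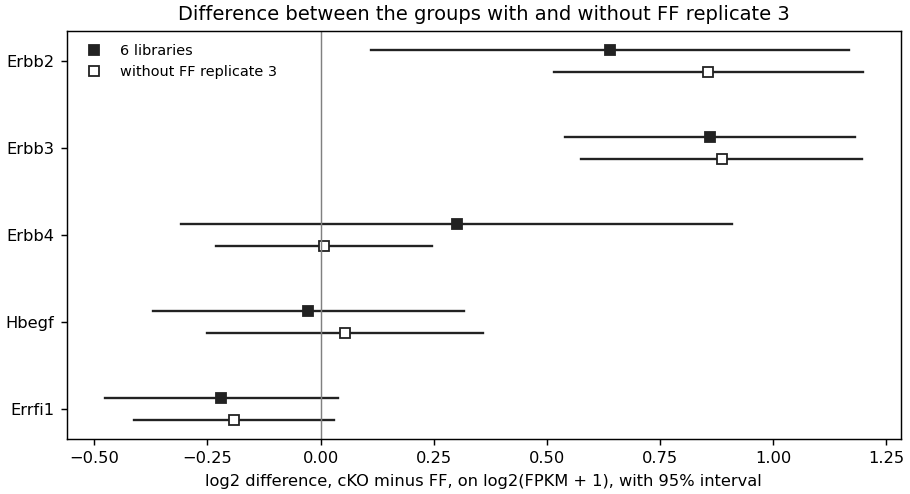
Difference of the group means of log2(FPKM + 1), cKO minus FF, for the 5 members tested in limma. Bars are 95% intervals; filled squares use 6 libraries and open squares leave out FF replicate 3, which moves Erbb4 to 0.0076 and narrows the interval of Erbb2.

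As a sum, the receptors were separated between the groups, with cKO hearts above. Among single genes tested, 13.5% had every cKO value above every FF value. Erbb2 held most of the sum in every library and Erbb3 was higher in cKO, so the sum in part repeats their differences. Taken alone, Erbb2 and Erbb4 overlapped between the groups and Egfr lay lower in cKO hearts. Erbb2, Erbb3, Erbb4 and Egfr summed to 18.5, 19.4 and 22.4 FPKM in cKO hearts, against 11.2, 12.2 and 14.7 FPKM in FF hearts, with no overlap. Erbb2 made up 56.1%, 64.0% and 62.8% of that sum in cKO hearts, against 51.7%, 55.9% and 71.0% in FF hearts. Erbb3 made up 24.8%, 18.9% and 21.7% of that sum in cKO hearts, against 16.7%, 15.7% and 13.9% in FF hearts. The share of Erbb4 was 14.9%, 13.1% and 11.7% in cKO hearts, against 23.8%, 21.1% and 6.54% in FF hearts, where FF replicate 3 was below every other library. The log2 ratio of Erbb4 to Erbb2, which does not depend on scaling between libraries, was -1.91, -2.29 and -2.43 in cKO hearts, against -1.12, -1.41 and -3.44 in FF hearts. Its mean differed by -0.22 (cKO minus FF), with an exact two-sided permutation p = 0.9 (n = 3 each). Without FF replicate 3 it differed by -0.95 with no overlap and exact p = 0.1, the smallest that 3 against 2 allows. In bulk hearts, more cells of a type and more RNA per cell cannot be told apart.

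**Figure D3:**
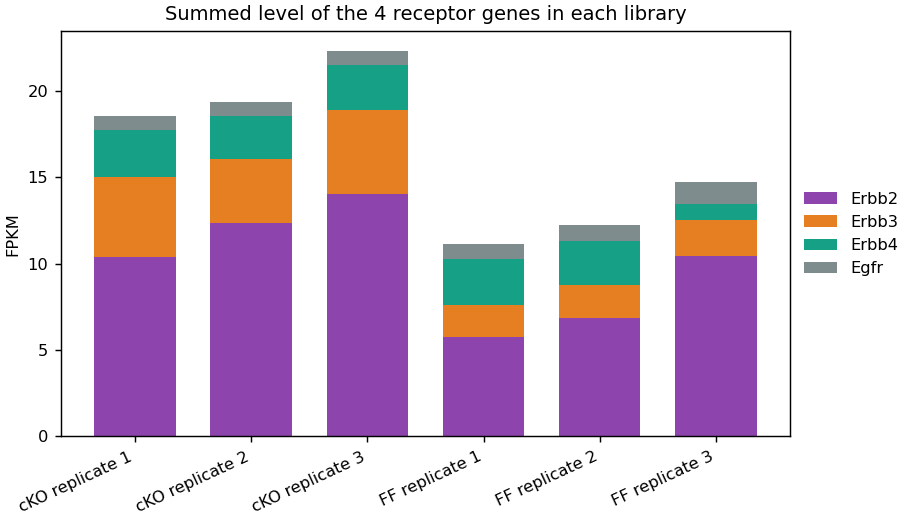
Summed FPKM of Erbb2, Erbb3, Erbb4 and Egfr in each library, cKO left of FF, with colours for the receptors. The cKO bars stand at 18.5 to 22.4 FPKM and the FF bars at 11.2 to 14.7 FPKM, and the Erbb4 block is thin in FF replicate 3.

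None of the 3 ligand members separated the groups. Hbegf (ENSMUSG00000024486, chromosome 18, 36637980 to 36648858, minus strand), a membrane-bound growth factor for EGFR and ERBB4, was the ligand with the highest level. It had 3.74, 4.01 and 3.05 FPKM in cKO hearts, against 3.60, 3.23 and 4.23 FPKM in FF hearts, fully intermixed. Its log2 difference was -0.027 (SE 0.14, 95% interval -0.37 to 0.32, limma adjusted p = 0.939), and 0.054 without FF replicate 3 (95% interval -0.25 to 0.36).

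Nrg1 (ENSMUSG00000062991, chromosome 8, 32304579 to 33374825, minus strand), the neuregulin of the endocardium, was read at a low level, with 0.217, 0.275 and 0.251 FPKM in cKO hearts, against 0.383, 0.166 and 0.200 FPKM in FF hearts. The cKO values lay inside the FF range, with exact two-sided permutation p = 1 (n = 3 each). The log2 difference was 0.0013, and -0.026 without FF replicate 3, where the groups also overlapped. They rest on 41 to 101 reads per library over a gene length of 15433 bases. The 95% counting interval was 0.119 to 0.225 FPKM in FF replicate 2 and 0.312 to 0.466 FPKM in FF replicate 1, so the FF hearts differed beyond counting error. The second row named Nrg1, 186 bases long, was listed at 0 in every library. Endocardial markers, 6 genes, summed to 40.1 to 48.3 FPKM in cKO and 38.8 to 45.6 FPKM in FF libraries, and endothelial markers, 8 genes, to 256 to 312 FPKM in cKO and 297 to 419 FPKM in FF libraries.

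Areg (ENSMUSG00000029378, chromosome 5, 91287458 to 91296291, plus strand), the EGFR ligand amphiregulin, was near the limit of detection. It had 0, 6 and 2 reads in cKO libraries, against 7, 4 and 7 reads in FF libraries, that is 0, 0.250 and 0.0758 FPKM against 0.337, 0.206 and 0.301 FPKM. A count of 0 allows up to 0.125 FPKM in cKO replicate 1 at 3 reads. The exact two-sided permutation p was 0.2 (n = 3 each) and 0.3 adjusted over the 3 low members, where 3 against 3 cannot go below 0.1. The groups also overlapped without FF replicate 3, with a log2 difference of -0.20 against -0.21 with 6 libraries.

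The 8 other ligands of the EGF family were all low and none reached the mean of 1 FPKM, so none was tested. Together they summed to 3.08, 2.99 and 3.84 FPKM in cKO hearts, against 2.83, 2.91 and 2.65 FPKM in FF hearts. Btc, betacellulin, a ligand of EGFR and ERBB4, was picked after its values were seen. It had 0.874, 0.772 and 1.21 FPKM in cKO hearts, against 0.622, 0.567 and 0.139 FPKM in FF hearts, with FF replicate 3 the lowest. Nrg3, a neuregulin best known from the brain, was listed at 0 in 5 libraries and at 0.00676 FPKM in cKO replicate 3.

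Errfi1 (ENSMUSG00000028967, chromosome 4, 150938376 to 150953349, plus strand), the feedback inhibitor also called MIG6, had 6.42, 6.64 and 5.99 FPKM in cKO hearts, against 7.21, 7.56 and 7.89 FPKM in FF hearts. Every cKO value lay below every FF value, a pattern shared by 14.5% of the genes tested. The mean was 6.35 ± 0.328 FPKM in cKO and 7.55 ± 0.340 FPKM in FF (SD, n = 3 each), 15.9% lower in cKO. The log2 difference of -0.22 (SE 0.11, 95% interval -0.48 to 0.04) did not pass, with limma adjusted p = 0.353, nor did -0.19 without FF replicate 3 (limma adjusted p = 0.197). Erbb3 and Errfi1 were the 2 of 5 members tested whose groups did not overlap, against 28.0% of all genes tested.

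Ordered by FPKM, which is per length of gene, cKO hearts had Erbb2 highest, then Errfi1, Erbb3, Hbegf, Erbb4, Egfr, Nrg1 and Areg. In cKO hearts the ranges overlapped only between Erbb3 and Hbegf and between Nrg1 and Areg. In FF hearts Erbb2 and Errfi1 came first with overlapping ranges, followed by Hbegf, Erbb4, Erbb3, Egfr, Areg and Nrg1. Errfi1 stood above Erbb2 with no overlap once FF replicate 3 was left out, at 7.21 to 7.56 FPKM against 5.77 to 6.84 FPKM, and the order went on with Hbegf, Erbb4, Erbb3, Egfr, Nrg1 and Areg. Erbb3 stood above Erbb4 in every cKO heart, with 3.67 to 4.84 FPKM against 2.53 to 2.77 FPKM. In FF hearts it stood below Erbb4 in replicates 1 and 2 and above it in replicate 3.

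Schwann cells depend on ERBB3, so their markers were set beside it. Sox10, the glial transcription factor, had 0.0498, 0.133 and 0.453 FPKM in cKO hearts, against 0.0192, 0.0205 and 0.497 FPKM in FF hearts. Cdh19, a cadherin gene of Schwann cell precursors, had 0.284, 0.485 and 0.205 FPKM in cKO hearts, against 0.465, 0.365 and 0 FPKM in FF hearts. Neither separated the groups as Erbb3 did, but both were under 1 FPKM in every library and were not in the limma test. They are thus a weak comparison. Of the 10 markers, 5 were tested, 1 higher and 4 lower in cKO, and 0 passed the threshold in limma with 6 libraries, while 1 fell without FF replicate 3. The whole list summed to 4.99 to 6.19 FPKM in cKO libraries, against 6.20 and 6.90 FPKM in FF replicates 1 and 2 and 52.5 FPKM in FF replicate 3. Mbp, the gene of myelin basic protein, had 0.670, 0.562 and 1.02 FPKM in cKO hearts, against 0.394, 0.443 and 5.77 FPKM in FF hearts. It was highest in FF replicate 3. The part of Schwann cells in the Erbb3 difference was not tested. Epicardial markers, 6 genes, summed to 34.2 to 42.0 FPKM in cKO and 39.8 to 75.5 FPKM in FF libraries. Fibroblast markers, 8 genes, summed to 476 to 607 FPKM in cKO and 590 to 856 FPKM in FF libraries.

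**Figure D4:**
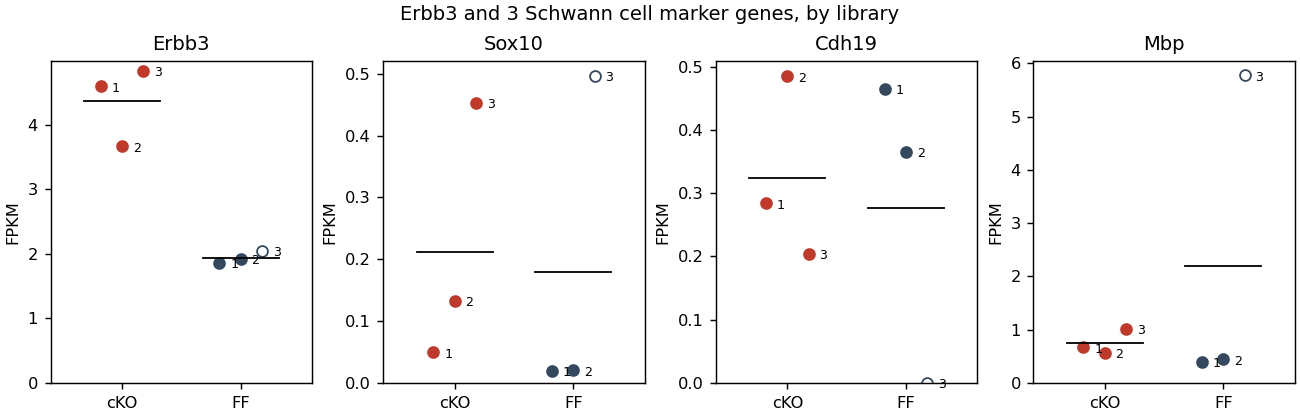
FPKM of Erbb3 and of the Schwann cell genes Sox10, Cdh19 and Mbp in each library, cKO left of FF, with numbers marking the replicate, the open point FF replicate 3 and horizontal lines the group means. Erbb3 separates the groups; Sox10 and Cdh19 do not, and Mbp is high in FF replicate 3.

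Genes around the receptors were read from 8 lists of 99 genes, of which 88 were tested. With 6 libraries 0 of the 88 passed in limma, and limma voom also called 0. An unadjusted limma p under 0.05 was found for 16, or 18.2%, close to the 17.9% of all genes tested. In that fit 47 were higher and 41 lower, with a median of 0.05 against 0.01 over all genes. Without FF replicate 3, 7 rose and 4 fell. That is 12.5% of the 88, close to the 12.0% of all genes tested.

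By role, 0 of 13 proteases that release ligands or cut receptors passed in either fit. Closest by p were Psenen, a subunit of gamma-secretase, at 20.5, 18.9 and 20.1 FPKM in cKO hearts against 24.8, 23.1 and 29.1 FPKM in FF hearts, and Adam19. Adam19, a protease that processes neuregulin, had 20.8, 24.1 and 22.3 FPKM in cKO hearts, against 17.2, 17.2 and 19.1 FPKM in FF hearts. The limma adjusted p was 0.229 for Psenen and 0.244 for Adam19, and 0.0898 and 0.0537 for them without FF replicate 3. Of 13 receptor adaptors and RAS genes tested, 0 passed with 6 libraries, while 1 rose and 1 fell without FF replicate 3. Grb10, an adaptor that dampens receptor signals, had 102, 106 and 101 FPKM in cKO hearts, against 73.7, 68.8 and 74.1 FPKM in FF hearts. Its groups stood apart in all libraries (log2 difference 0.51, limma adjusted p = 0.0932), and without FF replicate 3 it rose by 0.53 (limma adjusted p = 0.0217).

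Of 11 kinases of the ERK branch, 0 passed the threshold in either fit. Map2k2, a kinase of ERK, had 11.2, 13.3 and 12.6 FPKM in cKO hearts, against 13.6, 12.4 and 17.7 FPKM in FF hearts. Its groups overlapped (limma adjusted p = 0.541, and 0.661 without FF replicate 3). Of 14 genes of the PI3K and AKT branch, 0 passed with 6 libraries and 2 rose without FF replicate 3. Pik3ca, a catalytic subunit of PI3K, had 9.75, 8.99 and 9.82 FPKM in cKO hearts, against 7.43, 6.45 and 3.13 FPKM in FF hearts (limma adjusted p = 0.235, and 0.0484 without FF replicate 3). Pdpk1, the kinase that activates AKT, had 8.65, 8.63 and 9.56 FPKM in cKO hearts, against 6.64, 6.72 and 5.75 FPKM in FF hearts (limma adjusted p = 0.139, and 0.0491 without FF replicate 3). For both, FF replicate 3 was the lowest library and the groups did not overlap.

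Of 11 other effectors and partners, 0 passed with 6 libraries and 1 fell without FF replicate 3. That was Ptk2, focal adhesion kinase, with 5.92, 6.99 and 6.92 FPKM in cKO hearts, against 10.1, 9.36 and 8.05 FPKM in FF hearts. Its log2 difference was -0.42 (limma adjusted p = 0.183), and -0.50 without FF replicate 3 (limma adjusted p = 0.0365). Among 11 tested genes of receptor turnover, 0 passed with 6 libraries, and 1 rose and 1 fell without FF replicate 3. Rnf41, the ubiquitin ligase NRDP1 that lowers ERBB3 protein, had 5.41, 5.98 and 6.11 FPKM in cKO hearts, against 3.85, 4.28 and 6.80 FPKM in FF hearts. FF replicate 3 was the highest of the 6 libraries, and Rnf41 rose only when it was left out (log2 difference 0.43, limma adjusted p = 0.0449, against 0.22 with 6 libraries, limma adjusted p = 0.598). Cblb, a ubiquitin ligase of activated receptors, had 2.92, 3.21 and 2.72 FPKM in cKO hearts, against 4.43, 5.61 and 3.05 FPKM in FF hearts. It fell without FF replicate 3 (log2 difference -0.60, limma adjusted p = 0.0356), and had -0.41 with 6 libraries (limma adjusted p = 0.331).

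Of 15 target genes of the ERK branch tested, 5 were higher and 10 lower with 6 libraries and 0 passed. Without FF replicate 3, 6 were higher and 9 lower, and 3 rose and 1 fell, where 12.0% of all genes passed, with a list median of -0.14 and -0.07 in these fits. Egr1, an immediate-early transcription factor, had 6.75, 8.55 and 9.64 FPKM in cKO hearts, against 3.41, 4.18 and 9.74 FPKM in FF hearts. Ier3, an early response gene, had 13.1, 14.4 and 15.0 FPKM in cKO hearts, against 10.5, 8.46 and 13.4 FPKM in FF hearts. Dusp4, a phosphatase that switches ERK off, had 2.24, 1.90 and 2.79 FPKM in cKO hearts, against 1.18, 1.16 and 1.89 FPKM in FF hearts. All 3 were higher in cKO than in FF replicates 1 and 2, while FF replicate 3 lay at or near the cKO level. Spred1, an inhibitor of RAS signalling, had 8.37, 7.88 and 8.82 FPKM in cKO hearts, against 13.03, 10.7 and 5.65 FPKM in FF hearts, with FF replicate 3 the lowest. Fos, an immediate-early transcription factor, was picked after its values were seen. It had 1.29, 1.29 and 1.47 FPKM in cKO hearts, against 4.18, 2.23 and 6.20 FPKM in FF hearts, with no overlap (log2 difference -1.07, limma adjusted p = 0.137, and -0.80 with 0.0527 without FF replicate 3). Dusp6, Etv4 and Phlda1, picked likewise, also lay lower in cKO hearts with no overlap and did not pass in either fit. Lower values with no overlap were shared by 14.5% of all genes tested. In the same list Dusp4 lay higher in cKO hearts with no overlap, as did 13.5% of all genes tested. Adjusted p-values of Egr1, Ier3, Dusp4 and Spred1 without FF replicate 3 ran from 0.0224 for Egr1 to 0.0485 for Spred1 in limma, and with 6 libraries from 0.254 for Dusp4 to 0.827 for Spred1.

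**Figure D5:**
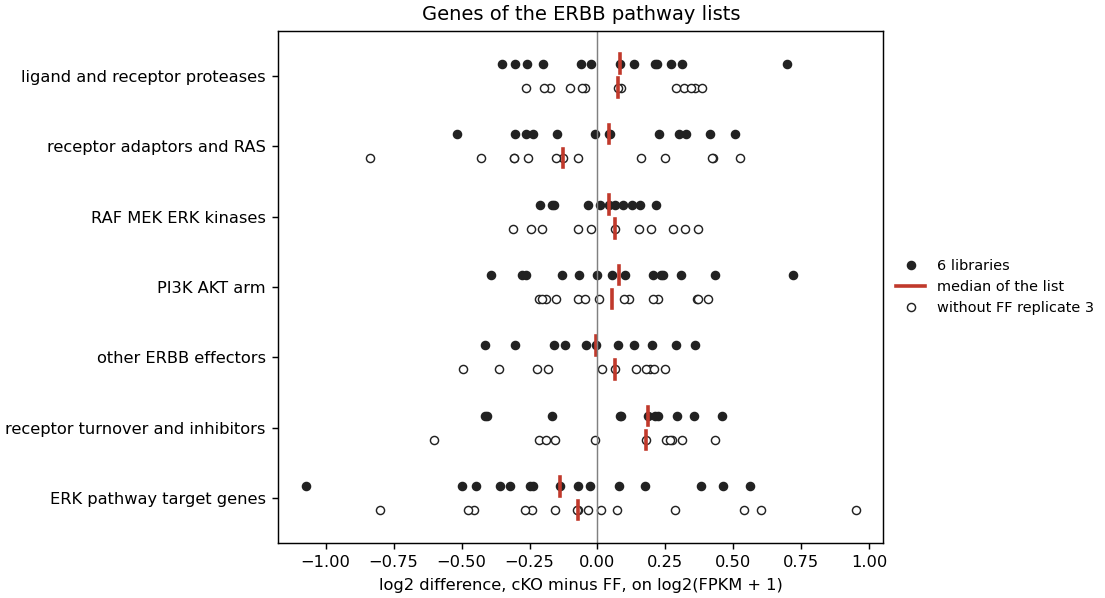
Difference of the group means of log2(FPKM + 1), cKO minus FF, for each tested gene of 7 pathway lists. Filled points use 6 libraries, open points leave out FF replicate 3, and red bars are list medians, which lie between -0.14 and 0.19 in both fits.

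The closest patterns over the 6 libraries were looked up among 7000 genes with a mean of at least 5 FPKM, with Pearson's r on log2(FPKM + 1) as a description. For Erbb2 they were Foxk1 (r = 0.996) and Bcl9 (r = 0.995), and for Erbb3 Nfx1 (r = 0.997) and Scaf4 (r = 0.993). Pearson's r does not measure the size of a difference. Nfx1 had a mean of 8.85 FPKM in cKO and 8.08 FPKM in FF hearts, a log2 difference of 0.12 against 0.86 for Erbb3. Erbb4 was followed by Fyttd1 and Ube2q2, each with r = 0.999, a likeness that holds mainly the low value of FF replicate 3. Fyttd1 had 26.8, 23.8 and 24.7 FPKM in cKO hearts, against 24.8, 23.2 and 7.28 FPKM in FF hearts. For Hbegf they were Myoz2 (r = 0.990) and Pitpnb (r = 0.966), and for Errfi1 Ntan1 (r = 0.997) and Gemin7 (r = 0.987). All rest on the same 6 libraries.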

How the data were processed

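RNA was measured by sequencing in 6 hearts, 3 cKO and 3 FF. The authors deposited FPKM values for 56748 genes, per the file headers. Tools named in the submitters' processing notes, with their order unstated, are TopHat2 2.0.13, featureCounts of Subread, edgeR and FastQC. The builds listed there are mm10, GRCm39 and GRCh38, each without its role. No source used here gives the strand setting or the annotation release. Coordinates are printed as deposited; the deposited starts differ from RefSeq starts on GRCm38, which of the mouse builds named leaves GRCm39.

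In each library, the product of FPKM and gene length came in whole multiples of a step, within 0.1 reads for 100% of values under 200 reads, which gave back the reads. Intervals and floors from reads cover counting error only. The median ratio to the geometric mean over 17868 genes was 1.01 in every library, so the deposited values were already level by that measure.

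The 12678 genes whose FPKM averaged 1 or more were tested on log2(FPKM + 1) with limma 3.58.1 (R 4.3.3), by group alone, with a trend of the spread on the level and Benjamini-Hochberg adjustment over all genes tested at 0.05. Differences are cKO minus FF, and this scale understates the change of low genes. Single values were tested by exact two-sided permutation over libraries. The steps were tested on simulated data in which no library stood apart, so that check does not cover a library like FF replicate 3.

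The members, gene lists and tests were chosen with earlier results of these data known. All 8 members are named. Of each pathway list, up to 4 genes past the threshold in either fit are named, or the 2 with the smallest p. Some genes of these lists are counted but not reported here by name. Each tested member has its 2 closest patterns. Alternatives were pseudocounts of 0.1 and 0.5, a filter at mean FPKM 5 or none, median-ratio, quantile and total-read scaling, limma voom on reads, a block for the replicate number, and fits without each library in turn. Of the 12 marker lists, those of smooth muscle, macrophages, red cells and atria are given in the closing section.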

Additional observations from a re-analysis of the deposited data

How the results depend on the processing

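The 5 members tested kept their direction and their side of the threshold under every alternative that kept them, apart from Erbb2 and Erbb3, which passed when FF replicate 3 was left out, and Hbegf. The filter at a mean FPKM of 5 removed Erbb3, Erbb4 and Hbegf and gave them no value. Hbegf, at -0.027, turned to 0.029 with scaling to total reads, an alternative chosen after seeing the data, to 0.062 leaving out cKO replicate 3 and to 0.054 leaving out FF replicate 3; its lowest value with a library left out was -0.098. Members past the threshold ranged from 0 to 2 when a library was left out, with 2 only without FF replicate 3. Erbb2 ranged from 0.48 to 0.86, Erbb3 from 0.80 to 0.96 and Erbb4 from 0.0076 to 0.46 over those fits. The limma adjusted p of Erbb3 ran from 0.0575 to 0.151 over the alternatives that kept 6 libraries, and from 0.0176 to 0.315 over those that left a library out. The cKO minus FF difference in the log2 ratio of Erbb4 to Erbb2, at -0.22, was 0.21 leaving out FF replicate 1, 0.070 leaving out FF replicate 2, and ranged from -0.95 to 0.21.

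Over all genes the count past the threshold was 21. It was 11 with a pseudocount of 0.1 and 11 with limma voom, 0 without a filter, 53 with a mean FPKM of at least 5, 59 with quantile normalization and 48 with scaling to total reads, and ranged from 0 to 1520 when a library was left out. It was 1520 without FF replicate 3 and 0 without any other single library. With the replicate number as a block it was 2, and the Erbb4 to Erbb2 difference was -0.22. Deviations from the group means correlated at 0.38, -0.24 and 0.24 for same-numbered libraries, and at -0.42 to 0.35 for the other pairs. With 3 libraries a group the deviations depend on each other, so they cannot decide whether the numbers pair the samples. The labels name no pairing. Median-ratio scaling left the values level. The cause of these shifts was not tested.

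Depth limits Areg, with 0 to 7 reads, and Nrg1, with 41 to 101. With 3 libraries a group, the intervals of Erbb4 and Hbegf still hold differences of 0.25 or more.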

Other observations

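Markers of other cell types moved with some groups, and their part in the results for the ERBB genes was not tested. Macrophage markers, 7 genes, summed to 28.8 to 35.5 FPKM in cKO libraries, against 38.1 to 81.9 FPKM in FF libraries, with no overlap between the groups. Smooth muscle and pericyte markers, 7 genes, summed to 478 to 585 FPKM in cKO and 446 to 514 FPKM in FF libraries. Red cell markers summed to 891 to 1096 FPKM in cKO and 753 to 1554 FPKM in FF libraries. Atrial markers, 6 genes, summed to 565 to 1549 FPKM in cKO and 151 to 1787 FPKM in FF libraries.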
